A study of Mus musculus with 1087 samples.

Results

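The genes that encode collagen chains and laminin chains were examined in single cells sorted from mouse embryos, out of the trunk tissue around the aorta, gonads and mesonephros (AGM). They were chosen by name: every protein-coding gene of the deposited table whose symbol is Col, a number, a and a number, or Lama, Lamb or Lamc and a number. This gave 55 of the 46078 genes, of which 44 encode collagen chains and 11 laminin chains. The question was which of them are read broadly across the cells of a class, and which owe their level to reads held by few cells.

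The embryos were Gata2V/+, carrying 1 allele of Gata2 linked to the Venus fluorescent protein, from Gata2V/V males and C57BL/6HsdJOla females. AGM tissue, with the vitelline and umbilical arteries as far as they run in the trunk, was digested with collagenase, an enzyme that cuts collagen protein, and live cells were stained for CD31, cKit and CD27 and sorted singly. The sample names call every cell KitHi, and the labels call all of them IAHC cells, for the clusters of blood cells that bud from the wall of the aorta. Of all cells, 10.9% were CD27+ cells of E11.5, whose Venus level is not stated. G2VInt cells (intermediate Venus) of E10 made up 8% (87 cells), those of E11 12% (130 cells) and those of E11.5 25.7%, and G2VLo cells (low Venus) of E11.5 made up 43.4%. All groups carry the same reporter allele, and no group without it was analysed here. No label ties a cell to an embryo, a litter or a sort. Each group is therefore 1 sample, its cells are not replicates, and no difference below was tested.

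Collagens are secreted proteins in which chains wind around each other into a rope. Fibrillar collagens (I, II, III, V, XI) form the fibres of connective tissue and cartilage, and collagen IV forms the mesh of the basement membrane, the sheet under every endothelium. Laminins are cross-shaped proteins of that sheet, each assembled inside the cell from an alpha, a beta and a gamma chain; the alpha chain sets which receptors bind. In the embryonic aorta, endothelial cells rest on such a sheet, and blood cells leave the endothelium as they form.

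Except for CD27+ cells, each cell carries a class label: EC (with clusters 1 and 2), HC1, HC2, U1 or U2, letters that are not spelled out. These classes and the CD27+ cells gave 7 sets. EC cluster 1 held 13.3% of the cells, EC cluster 2 17.5% (190 cells), HC2 11.4%, U1 7.82% (85 cells), U2 1.75% (19 cells), CD27+ 10.9% and HC1 37.3%. Cells held from 117369 to 6999570 reads with a median of 818924. A level is the reads of a gene summed over the cells of a set as counts per 1000000 summed reads (CPM). A pooled level cannot tell fewer cells with the RNA from less RNA per cell, so shares of cells with a read stand beside it, taken after every cell had been thinned at random to 100000 reads. Summed levels of endothelial markers (7 genes, Pecam1 and Cdh5 among them) were 6483 CPM in EC cluster 1, 4881 in EC cluster 2, 173.4 in HC2, 129.2 in U1, 2009 in U2, 1577 in CD27+ cells and 1551 in HC1. Those of hematopoietic markers (6 genes, Ptprc and Runx1 among them) were 4.22 CPM in EC cluster 2, 644.1 in HC2, 545.1 in U1, 210.4 in U2, 519 in CD27+ cells and 707.3 in HC1, and U1 had 9216 CPM of macrophage markers. The clusters were formed from all genes, these included, so differences between classes are descriptions.

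A member was called broad in a set where 20% or more of its thinned cells had a read. By that measure 18 of the 55 members were broad in EC cluster 1 (32.7%, against 24.1% of all genes), 16 in EC cluster 2 (29.1%, against 23.6%), 4 in HC2 (7.27%, against 22%), 3 in U1 (5.45%, against 21.1%), 28 in U2 (50.9%, against 25.5%), 10 in CD27+ cells (18.2%, against 22.9%) and 11 in HC1 (20%, against 23%). The background here is all 46078 genes of the table, many of them hardly read. At least 1 CPM was reached by 31 members and 14024 genes in EC cluster 1, where 11101 genes were broad. In U2 it was reached by 38 members and 15006 genes, where 11739 genes were broad. Against genes at that level the members were not broader in EC cluster 1 or U2. A member was called held by few cells where it had at least 1 CPM, was not broad, and 5% of the cells or fewer held 50% of its summed CPM; in U2, where 5% is less than a cell, 1 cell was allowed. There were 13 such members in EC cluster 1 (23.6%, against 4.47% of all genes), 6 in EC cluster 2 (10.9%, against 4.13%), 8 in HC2 (14.5%, against 5.95%), 13 in U1 (23.6%, against 5.63%), 8 in U2 (14.5%, against 4.82%), 25 in CD27+ cells (45.5%, against 6.25%) and 12 in HC1 (21.8%, against 6.25%). Only genes of at least 1 CPM can be called so. Among these, the shares were 41.9% of members and 14.7% of genes in EC cluster 1, and 26.1% and 13.9% in EC cluster 2. HC2 had 66.7% and 20.3%, U1 81.2% and 20.1%, and U2 21.1% and 14.8%. CD27+ cells had 69.4% and 20.2%, and HC1 52.2% and 20.5%. The count in CD27+ cells was the highest of the 7 sets, but it was 13 without the cells of cluster 4 of the clustering of all cells (23.6%, against 6.18% of all genes), where U2 had 15 over its remaining 8 cells. The members together took 5283 CPM in EC cluster 1, 4189 in EC cluster 2, 130.1 in U1, 3438 in U2, 1405 in CD27+ cells and 1606 in HC1. Of the 55, 29 were broad in at least 1 set (52.7%, against 28.5% of all genes), 3 in all 7 (Col18a1, Col4a1 and Lamc1; 5.45%, against 18.3%), 9 in U2 only (16.4%, against 1.38%), and 9 stayed under 1 CPM in every set. When thinned to 50000 reads, Lamc1 alone was broad in all 7.

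**Figure D1:**
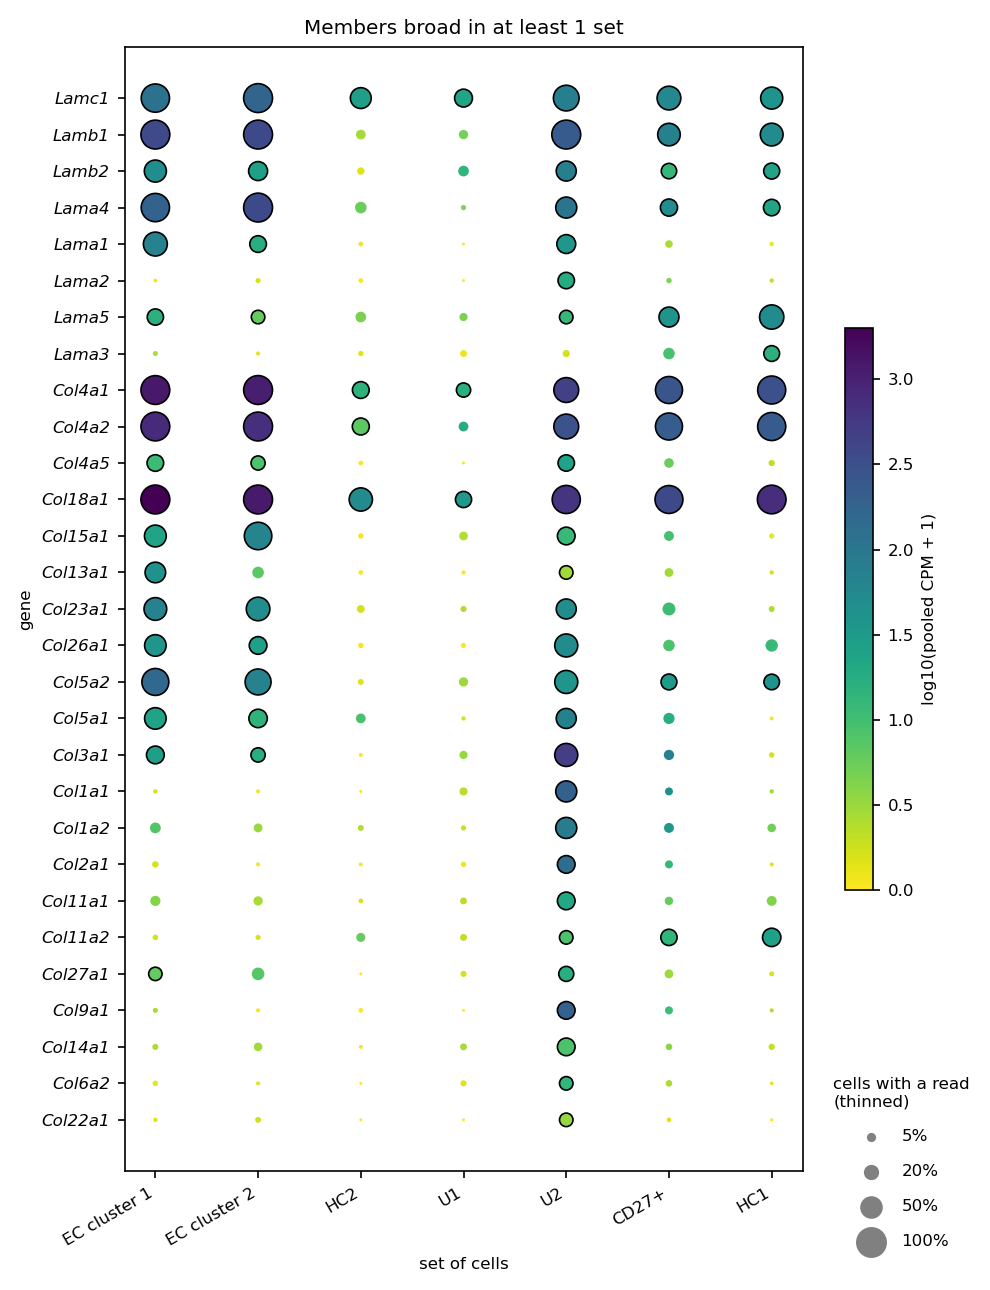
Each row is one of the 29 members that are broad in at least 1 set, and each column a set of cells. Point area gives the percent of thinned cells with a read, colour the pooled level as log10(CPM + 1), and a black ring marks a broad member; both EC clusters and U2 are ringed in most rows, HC2 in 4 and U1 in 3.

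Collagen IV of the basement membrane is built mainly from the chains of Col4a1 and Col4a2. Col4a1 stood at 1243 CPM in EC cluster 1 (95% Poisson interval 1238 to 1248), 1073 in EC cluster 2 (1069 to 1078), 14.1 in HC2 (13.5 to 14.6), 15 in U1 (14 to 16), 462.5 in U2 (453.7 to 471.4), 273.8 in CD27+ cells (270.2 to 277.6) and 309.8 in HC1 (308.4 to 311.3). These intervals cover counting error only, and PCR copies make them too narrow. Single EC cluster 2 cells ran between 175.3 and 3838 CPM with a median of 918, so every cell of that cluster was high. Single HC1 cells ran between 0 and 1186 CPM with a median of 211.6, and overlap the EC cells. The median HC2 cell had 2.49 CPM and the median U1 cell 1.87 CPM, with highest cells of 799.2 and 1164 CPM, so in both sets the pooled level sat far above the typical cell. Col4a2 followed the same order at the top, with 813.2 CPM in EC cluster 1, 697 in EC cluster 2 and 231.4 in HC1.

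Both chains are needed for the helix, and they were read together in most cells of every set but HC2 and U1. A thinned cell had reads of both in 98.6% of EC cluster 1 (95% exact binomial interval 95.1 to 99.8), 100.0% of EC cluster 2 (98.1 to 100.0), 19.4% of HC2 (12.8 to 27.4), 4.71% of U1 (1.30 to 11.6), 73.7% of U2 (48.8 to 90.9), 79.8% of CD27+ cells (71.5 to 86.6) and 90.1% of HC1 (86.8 to 92.8). Per kilobase of exon, the ratio of Col4a1 to Col4a2 stood at 1.36 in EC cluster 1, 1.37 in EC cluster 2, 1.10 in CD27+ cells and 1.19 in HC1. In HC2 it was 2.15, in U1 0.764 and in U2 1.4. Across thinned cells the chains had a Spearman correlation of 0.65 in EC cluster 1, 0.56 in the 190 cells of EC cluster 2 and 0.62 in HC1, where the points of a set share library blocks and depth differs between cells. The correlation was 0.4 in HC2, 0.21 in U1, 0.92 in U2 and 0.7 in CD27+ cells.

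The genes lie head to head on chromosome 8 of GRCm38, Col4a1 (ENSMUSG00000031502) at 11198423 to 11312826 on the minus strand and Col4a2 (ENSMUSG00000031503) at 11312805 to 11449287 on the plus strand, so that their first exons share 22 bases on opposite strands. The counting is not stated to use strand, and the part of these bases in the joint reads was not tested. The windows run from 250 bases before to 50 bases after each RefSeq start (build GRCm38.p6) and overlap by 78 bases. They are shown because the chains share this stretch and move together in the EC clusters and HC1. They are written 5′ to 3′ on each gene's own strand, with capitals for the CCAAT box (CCAAT) and the GC box (GGGCGG) on either strand.
Col4a2, chr8:11312555-11312854, plus strand: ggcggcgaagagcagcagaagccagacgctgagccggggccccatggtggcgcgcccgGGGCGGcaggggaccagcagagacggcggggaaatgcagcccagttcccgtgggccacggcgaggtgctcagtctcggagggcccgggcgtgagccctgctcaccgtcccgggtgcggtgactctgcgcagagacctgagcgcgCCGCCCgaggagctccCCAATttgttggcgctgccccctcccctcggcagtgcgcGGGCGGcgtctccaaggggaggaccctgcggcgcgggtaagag
Col4a1, chr8:11312777-11313076, minus strand: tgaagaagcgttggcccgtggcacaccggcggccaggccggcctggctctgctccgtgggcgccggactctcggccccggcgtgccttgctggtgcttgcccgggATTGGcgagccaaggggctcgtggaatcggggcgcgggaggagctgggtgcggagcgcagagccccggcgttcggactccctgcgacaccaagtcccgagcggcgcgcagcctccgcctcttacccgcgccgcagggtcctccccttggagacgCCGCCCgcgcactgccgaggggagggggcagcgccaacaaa

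The Col4a2 window held 3 GC boxes and 1 CCAAT box, which lies 32 bases before the start, and the Col4a1 window 1 of each. The GC box 7 bases after the Col4a2 start is the same box as the one 9 bases after the Col4a1 start, in the bases that the windows share. GC made up 73.7% of the Col4a2 window and 74% of the Col4a1 window, against a median of 52.7% over all windows. Of 32851 RefSeq windows of this length, 35.7% held a GC box and 37.4% a CCAAT box. Neither window held a TATA box (TATAAA, in 13.6% of all windows), a GATA motif (AGATAA, 11.2%), a RUNX motif (TGTGGT, 16.8%) or the ETS motif searched (CCGGAAGT, 3.89%), which says only that these letters are not in these windows. No marked motif overlapped another. Windows were found for 40 of the 55 members.

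The other collagen IV chains were read in fewer cells. Col4a5, a chain of the collagen IV of kidney and smooth muscle sheets, had 10.1 CPM in EC cluster 1, 7.31 in EC cluster 2 and 1.13 in HC1, and was broad in both EC clusters and U2. Col4a3, Col4a4 and Col4a6 were broad nowhere, with a highest level of 2.97 CPM (Col4a6 in EC cluster 1).

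Col18a1 encodes collagen XVIII, a basement membrane protein whose end piece is endostatin, and was the highest member per kilobase of exon in all 7 sets. Its level was 2003 CPM in EC cluster 1 (1998 to 2009), 1176 in EC cluster 2 (1171 to 1180), 52.6 in HC2 (51.6 to 53.7), 32.1 in U1 (30.7 to 33.6), 614.5 in U2 (604.4 to 624.7), 368.3 in CD27+ cells and 753.3 in HC1 (751.0 to 755.5). Single HC1 cells spanned 0 to 2824 CPM with a median of 521.4, against 105.2 to 5126 with a median of 1525 in EC cluster 1. HC1 was itself uneven: its cluster 7 (numbered, like the other clusters of HC1, HC2, U1 and U2, in the clustering without CD27+ cells) had 1053 CPM and its cluster 8 had 415.2. Per kilobase of exon Col18a1 also exceeded Col4a1, with 285.3 against 166.5 CPM in EC cluster 1 and 107.3 against 41.5 in HC1. Col15a1, whose collagen XV is the close relative of XVIII, was an EC gene here. It had 23.1 CPM in EC cluster 1 and 63.9 in EC cluster 2 (90.5% of cells), against 0.273 in HC1 (2.22% of cells), and was the single tested member that was 2-fold or more lower in EC cluster 1 than in EC cluster 2.

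**Figure D2:**
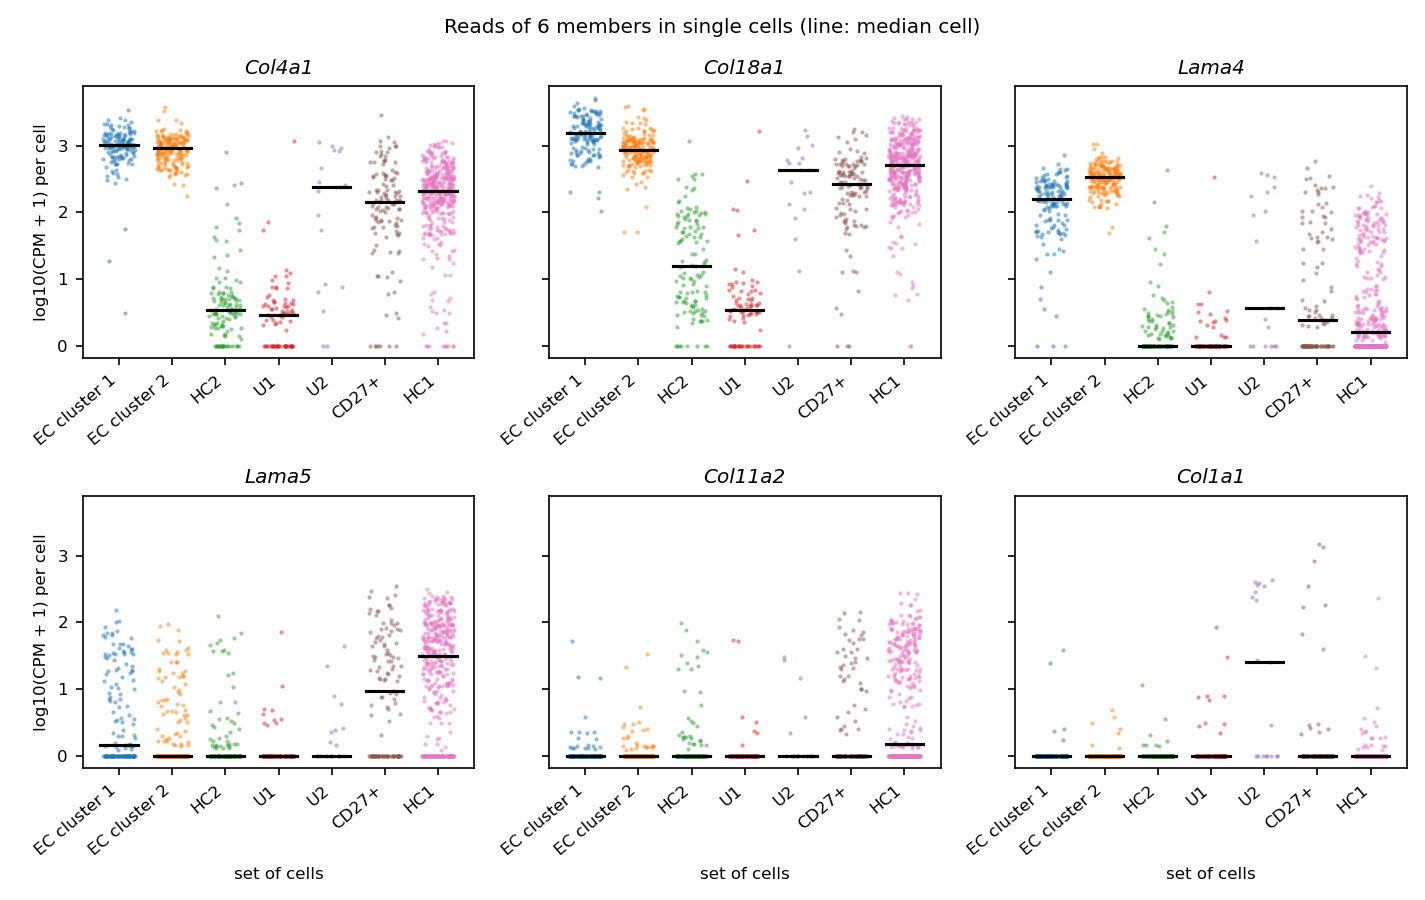
Each point is a cell, placed by set and by its own level as log10(CPM + 1), with a line at the median cell. Col4a1 and Col18a1 fill both EC clusters, CD27+ and HC1; Lama4 fills the EC clusters; Lama5 and Col11a2 are read most in HC1 and CD27+ cells; Col1a1 is at 0 in most cells of every set but U2, with a few high CD27+ cells.

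Among the laminin chains, Lamb1, Lamc1 and Lama4 made up the common set of the EC clusters. Lama4, the alpha chain of vessel walls, had 187.3 CPM in EC cluster 1 (185.6 to 189.1), 373.7 in EC cluster 2 (371.2 to 376.2), 4.64 in HC2, 3.01 in U1, 106.7 in U2, 47.3 in CD27+ cells and 21.8 in HC1 (21.4 to 22.2). Single EC cluster 2 cells ran between 47.5 and 1076 CPM with a median of 337.9. The median HC1 cell had 0.643 CPM and the highest 247.3, so HC1 reads came from a subset of cells. Lamb1, the partner beta chain, had 359.6 CPM in EC cluster 1, 378.1 in EC cluster 2, 1.79 in HC2, 3.92 in U1, 234 in U2, 75.1 in CD27+ cells and 53.3 in HC1. Lamc1, the gamma chain of most laminins, had 117.6, 171.4, 27.4, 21.8, 78.8, 54.9 and 38 CPM in the same order of sets. Lamc1 differed least between sets among these chains and was read in 51.6% of HC2 cells and 37.6% of U1 cells, where no alpha or beta chain was broad.

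Counting the cells with all chains of a trimer showed the same split. Lama4, Lamb1 and Lamc1 were read together in 93.8% of EC cluster 1 (88.5 to 97.1), 100.0% of EC cluster 2 (98.1 to 100.0), 1.61% of HC2 (0.196 to 5.70), 1.18% of U1 (0.0298 to 6.38), 36.8% of U2 (16.3 to 61.6), 26.1% of CD27+ cells (18.4 to 34.9) and 13.1% of HC1 (9.96 to 16.8). With Lama5 in place of Lama4 the shares were 30.3% in EC cluster 1, 21.1% in EC cluster 2, 25.2% in CD27+ cells and 30.1% in HC1. With Lama1, the alpha chain of early embryonic sheets, they were 67.6% in EC cluster 1, 32.6% in EC cluster 2, 5.04% in CD27+ cells and 0.494% in HC1. Lamb2, a beta chain that can replace Lamb1, had 46.7 CPM in EC cluster 1, 24.8 in EC cluster 2, 75.7 in U2, 11.7 in CD27+ cells and 23.7 in HC1. In U1 it had 12.7 CPM, read in 12.9% of cells, with 3 cells holding 50% of its summed CPM.

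Set against HC1, most tested members were higher in EC cells. A gene was tested where one of the sets had 5 CPM or more and 5% or more of the thinned cells in the higher set had a read, and the calls are ratios of 2-fold or more. For EC cluster 1 over HC1, 21 members were tested, and 16 were higher (13.2% of all 11804 genes tested were) and 3 lower (13.3% of all genes). The median log2 ratio of the tested members was 2.05, against -0.21 over all genes. For EC cluster 2 over HC1, 20 were tested, with 14 higher (11.3% of all genes) and 3 lower (15%), and medians of 2.44 and -0.27. The same 14 members were higher in both EC clusters, with Col18a1 and Col5a2 added in cluster 1. Both comparisons share the HC1 cells. Among the higher members that were broad in HC1 too, the ratios in EC cluster 1 ran from 2.66-fold for Col18a1 to 8.6-fold for Lama4. Among those that were not broad in HC1 they ran from 3.35-fold for Col26a1 to 525.9-fold for Lama1. Lama1 had 67.1 CPM in EC cluster 1 and 15.6 in EC cluster 2, against 0.128 in HC1, or 525.9-fold and 121.9-fold higher.

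The 3 members lower in both EC clusters than in HC1 were Lama5, Lama3 and Col11a2. Lama5, the alpha chain that joins Lama4 in vessel walls and occurs in most adult sheets, had 14.8 CPM in EC cluster 1 (14.3 to 15.3), 4.99 in EC cluster 2 (4.70 to 5.28), 3.64 in HC2, 3.65 in U1, 11.3 in U2, 38 in CD27+ cells (36.6 to 39.4) and 52.2 in HC1 (51.6 to 52.8). It was read in 31%, 21.1%, 12.9%, 7.06%, 21.1%, 47.1% and 70.4% of the thinned cells in that order. The median HC1 cell had 30.2 CPM and the highest 313.6; the median was 0.454 CPM in EC cluster 1 and 0 in EC cluster 2, so the sets overlap but differ in the typical cell. Lama3, the alpha chain of skin and other epithelia, had 1.55 CPM in EC cluster 1, 0.308 in EC cluster 2, 8.26 in CD27+ cells and 14.7 in HC1, where 29.1% of cells had a read. In EC cluster 1 a single E11.5 G2VInt cell held 53.4% of its summed CPM; that cell was also the highest EC cluster 1 cell for Lama5 and Lamb2 and had 787.8 CPM of neural markers. Col11a2, a chain of the cartilage collagen XI, had 0.682 CPM in EC cluster 1, 0.650 in EC cluster 2, 4.98 in HC2, 1.12 in U1, 7.72 in U2, 13 in CD27+ cells and 25.6 in HC1, where it was read in 39.8% of cells. Its ratio was 37.5-fold lower in EC cluster 1 and 39.3-fold lower in EC cluster 2. Its partner chain Col11a1 was held by few cells in HC1, with 3.20 CPM, and Col2a1, which joins XI in cartilage fibrils, had 0.425 CPM there.

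Within HC1 these members did not follow one pattern. Cluster 7 of HC1 had 68.5 CPM of Lama5 and 22.6 of Lama3, against 33.8 and 5.75 in cluster 8. Col11a2 stood at 25.4 CPM in cluster 7 and 25.8 in cluster 8, and Lamc1 at 39.7 and 36.1. Col5a2 had 65 CPM in cluster 7 and 7.04 in cluster 8. Summed endothelial markers were 2018 CPM in cluster 7 and 1023 in cluster 8; their part in these values was not tested. In the HC2 class the 4 cells that held 50% of the Col11a2 reads all lay in cluster 8 when all cells were clustered together. Cluster 9 of HC2 had 15.8 CPM of Col11a2, against 0.671 in cluster 10 and 0.167 in cluster 11.

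The Lama5 promoter window is shown because, of the 3 members lower in both EC clusters, Lama5 was read in the largest share of HC1 cells; its ratio was the smallest of the 3, 3.52-fold lower in EC cluster 1 and 10.5-fold lower in EC cluster 2. It lies on chromosome 2, with capitals for GC boxes, of which it held 4, and none of the other motifs searched; its GC content was 72.7%.
Lama5, chr2:180225810-180226109, minus strand: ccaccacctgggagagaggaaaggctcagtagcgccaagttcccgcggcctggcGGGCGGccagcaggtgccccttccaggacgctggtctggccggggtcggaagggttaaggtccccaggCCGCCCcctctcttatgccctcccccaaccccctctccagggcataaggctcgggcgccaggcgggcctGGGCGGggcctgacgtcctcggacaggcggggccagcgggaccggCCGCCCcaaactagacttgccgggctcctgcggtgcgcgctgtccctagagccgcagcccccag

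Some fibrillar and transmembrane collagens were broad in the EC clusters. Col5a2, a chain of collagen V, which starts the assembly of fibres, had 155.9 CPM in EC cluster 1 (86.9% of cells), 69.8 in EC cluster 2 (80.5%), 0.461 in HC2, 2.15 in U1, 36.6 in U2, 31 in CD27+ cells and 37.8 in HC1 (28.4%). Its partner Col5a1 had 23.4 CPM in EC cluster 1, 13.8 in EC cluster 2 and 0.201 in HC1, where only 0.741% of cells had a read. HC1 cells with Col5a2 therefore mostly had no read of Col5a1: both were read in 0.494% of HC1 cells (0.0599 to 1.77), against 50.3% of EC cluster 1 (41.9 to 58.7). Col3a1, of elastic connective tissue, had 26.9 CPM in EC cluster 1 and 15.6 in EC cluster 2, against 0.704 in HC1. Col27a1, a fibrillar collagen of developing cartilage, had 5.22 and 6.38 CPM in EC clusters 1 and 2, against 0.584 in HC1.

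Of the transmembrane collagens, Col23a1 had 68 CPM in EC cluster 1 and 48.7 in EC cluster 2, against 1.56 in HC1, and Col13a1, found at cell adhesion sites, had 42.7 and 6.05 CPM, against 0.633 in HC1. Col26a1, a small secreted collagen first described in gonads, had 36.7 CPM in EC cluster 1, 26.4 in EC cluster 2 and 11.0 in HC1, where it was held by few cells. Between the EC clusters, 19 members were tested, and 5 were 2-fold or more higher in cluster 1 (5.30% of all genes were) and 1 lower (1.31% of all genes). Those higher were Col13a1 (7.05-fold), Lama1 (4.31-fold), Lama5 (2.97-fold), Col1a2 (2.96-fold) and Col5a2 (2.23-fold). Lama4 lay just under the threshold of a call in the other direction, with 187.3 CPM in cluster 1 and 373.7 in cluster 2. EC cluster 1 also had 39.1 CPM of coelomic and gonadal markers and 110.4 of neural ones, against 1.41 and 14.1 in EC cluster 2. The median EC cluster 1 cell had 0.499 and 9.96 CPM of them and the highest cells 877.1 and 1050. In EC cluster 2 both medians were 0, with highest cells of 33.4 and 376.9 CPM. The pooled levels thus sat far above the typical cell, and the part of these markers in the values above was not tested. Among the E11.5 G2VLo cells alone Lama5, Col5a2 and Col1a2 were under 2-fold.

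In HC2 and U1 nearly all members were low. HC2 over HC1 gave 13 tested members, of which 1 was higher (6.17% of all genes) and 11 lower (14.7%), with a median log2 ratio of -4.46 against -0.10 over all genes. U1 over HC1 gave 12 tested, with 0 higher (12.3% of all genes) and 10 lower (35.3%), and a median of -3.98 against -0.64. The 10 lower in U1 were all lower in HC2 too, both against the same HC1 cells. Col4a1 was 22-fold lower in HC2 and 20.7-fold lower in U1, Col18a1 14.3-fold and 23.5-fold, Lamb1 29.8-fold and 13.6-fold, and Lama5 14.3-fold in each. Lamc1 was not called in either, with 27.4 CPM in HC2 and 21.8 in U1, against 38 in HC1.

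Several of the low levels in HC2 and U1 rested on few cells, though Col4a1, Col18a1 and Lamc1 were broad in both sets. The highest cell held 4.98% of the summed CPM of Lamc1 in HC2 and 12.5% in U1. For Col18a1 in HC2 it held 16%. One U1 cell, E11.5 G2VLo replicate 440, held 78.9% of the summed CPM of Col4a1 in U1, 79.7% of Col4a2, 66.8% of Col18a1, 92.2% of Lama4 and 69.9% of Lamb1. It had 1956 CPM of endothelial markers, against a median of 45.6 over U1, and 4919 CPM of macrophage markers, and it lay in cluster 4 of the clustering of all cells. Without it U1 had 6.04 CPM of Col4a1, 8.21 of Col4a2, 19.3 of Col18a1, 0.364 of Lama4 and 1.99 of Lamb1. In HC2 the highest cell of Col4a1, Col4a2, Lama4 and Lamb1 was E11.5 G2VLo replicate 60, with 2411 CPM of endothelial markers, against a median of 132.6 over HC2, and 1008 CPM of erythroid markers. It held 32.7% of Col4a1, 26.9% of Col4a2, 49% of Lama4 and 34.8% of Lamb1. Among E11.5 G2VLo cells alone the direction of Lama4 turned, with a log2 ratio of 0.86 for HC2 over HC1. Doublets were not called, so whether such a profile comes from more than a single cell was not tested.

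Col5a1 was the exception in HC2, with 7.81 CPM (7.41 to 8.22), against 0.201 in HC1 (0.166 to 0.241), or 38.8-fold higher. It was read in 10.5% of HC2 cells, and 4 cells held 50% of its summed CPM. In the clustering without CD27+ cells 3 of them lay in cluster 11 and 1 in cluster 10. Cluster 11 of HC2 in that clustering (29 cells) had 21 CPM, read in 31% of its cells, against 4.14 CPM in cluster 10 and 0.0545 in cluster 9. Cluster 11 had 1297 CPM of erythroid markers, against 726.4 in cluster 10 and 24.9 in cluster 9. Its partner Col5a2 had 0.259 CPM in cluster 11. Among E11.5 G2VLo cells alone Col5a1 had 2.97 CPM in HC2 and 0.12 in HC1 (61 and 9 reads), too low to be tested, so that no member was called higher in HC2 there. Col5a1 shares short exon stretches with a pair of non-coding genes on the other strand, which had 0 reads in HC2.

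**Figure D3:**
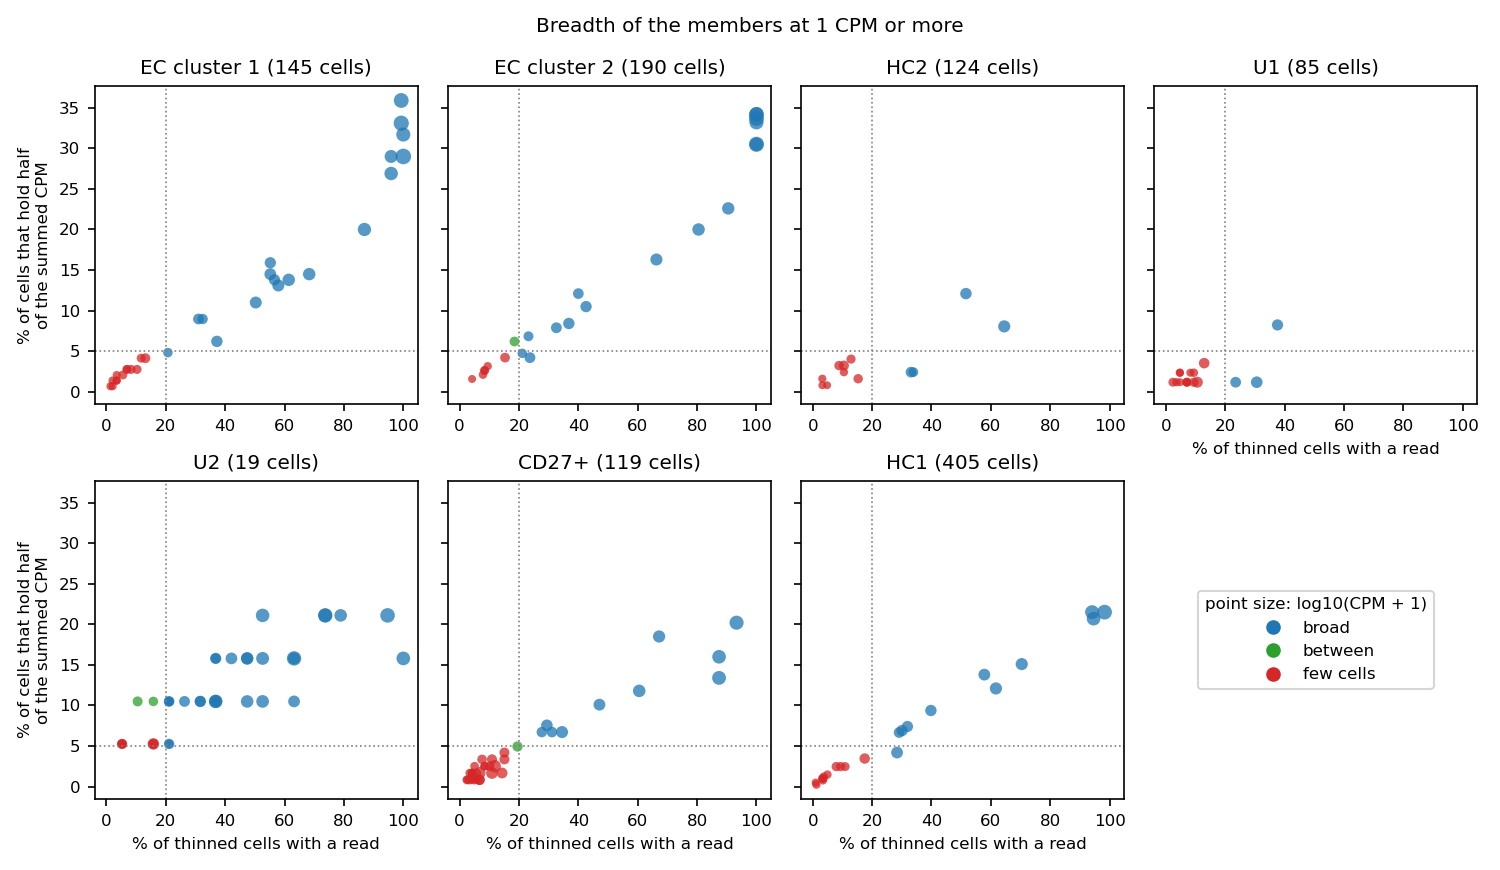
Each point is a member with at least 1 CPM in that set; the x axis gives the percent of thinned cells with a read, the y axis the percent of cells that hold 50% of its summed CPM, and point size its level. Dotted lines mark the limits of 20% and 5%, and U2 members held by 1 cell lie at 5.26%, just above the line; in the EC clusters and HC1 the members spread along a rising line, and in CD27+ cells most lie in the lower left corner.

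U2 is small (19 cells) and mixed. Its cluster 4 (14 cells) had 227.6 CPM of mesenchymal markers (9 genes, Pdgfra and Dcn among them), 2251 of endothelial and 469.2 of macrophage ones, while its cluster 3 (5 cells) had 1701 CPM of germ cell markers and 1.86 of mesenchymal ones. Cluster 4 had 222.7 CPM of Col1a1, 572.7 of Col3a1 and 157.1 of Col2a1, against 0.373, 0 and 0.373 CPM in cluster 3. In cluster 3 Lamb1, Lamc1 and Col18a1 were read in all 5 cells, with 60.8, 42.9 and 207.3 CPM, while Col4a1 had 3.35. The 9 members broad in U2 only were Col1a1 (196.7 CPM over all of U2), Col9a1, Col2a1 (138.8), Col1a2 (86.7), Col11a1 (19.8), Lama2 (17.5), Col6a2 (12.4), Col14a1 (7.72) and Col22a1 (2.36). These are chains of bone, skin, cartilage and muscle matrix. With 19 cells, 4 cells reach the limit of broad, and a count of 0 cells allows a share of up to 15.8%. Of the 19 cells, 11 lie in cluster 4 of the clustering of all cells. Without the cells of that cluster 18 members were broad in U2 and 4 in U2 only. Of the 4 members of at least 5 CPM that 1 cell carried, Col25a1 had 27 CPM (69.1% in that cell), Col8a1 10.5 (83.2%), Col24a1 9.21 (99.9%) and Col8a2 5.63 (100.0%).

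In CD27+ cells 10 members had at least 5 CPM held by few cells, among them fibrillar and cartilage collagens; Col5a2 and Col11a2, also fibrillar, were broad. Col3a1 had 74.6 CPM there (72.6 to 76.5) but was read in 11.8% of thinned cells, and 3 cells held 50% of it; the highest cell had 2040 CPM and the median cell 0. Col1a1 had 43.9 CPM (42.4 to 45.4), read in 6.72% of cells, with 2 cells holding 50%; its highest cells had 1497 and 1359 CPM. Col1a2 had 35.1 CPM with 2 cells holding 50%, Col5a1 15.6 with 2, Col2a1 11.7 with 1, and Col9a1 9.89 with 1. The other members of at least 5 CPM held by few cells were Lama3 (8.26), Col15a1 (8.35) and Col11a1 (5.01), each with 4 cells holding 50%, and Col26a1 (7.53) with 5.

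Most reads of several of these genes lay in the same cells. Of the CD27+ cells, 9 belong to cluster 4 of the clustering of all cells. They held 99.9% of the Col1a1 reads, 96.8% of Col1a2, 97.6% of Col3a1, 99.3% of Col2a1, 99.3% of Col9a1, 88.7% of Col5a1 and 64.9% of Col11a1. Col11a1 stood at 36.8 CPM in these 9 cells and 1.93 in the other CD27+ cells. Of the rest, Lama3 stood at 1.18 and 8.95 CPM, and Col15a1 at 36.8 and 5.6. All 8 cells with a thinned read of Col1a1 were among the 9, and all 8 also had reads of Col3a1. In these 9 cells Col3a1 stood at 822.6 CPM and Col1a1 at 495.5, against 0.257 and 0.0467 CPM in the 69 CD27+ cells of cluster 8. Summed Col1a1, Col1a2 and Col3a1 ran from 74.7 to 4534 CPM in the 9 cells with a median of 765.6, against a median of 0 in the other 110, whose highest cell lay above the lowest of the 9, so the ranges overlap at their ends. Mesenchymal markers summed to a median of 512.9 CPM in the 9 cells (24.4 to 2723) and 6.29 in the other 110 (0 to 261.7). Hematopoietic markers summed to 9.71 (0 to 386.4) and 587.2 (0 to 1468), and smooth muscle markers to 105.2 (2.54 to 9343) and 2.96 (0 to 2799). Endothelial markers summed to 418.9 (45.2 to 4997) and 1069 (54.3 to 9523), so the 9 cells were mixed in their markers. The part of these markers in the collagen levels was not tested. The 9 cells had a thinned read of 11 to 33 of the 55 members with a median of 22, against 1 to 14 with a median of 7 in the other CD27+ cells. Replicates 23, 27 and 30 of the CD27+ group were the highest cell for 6, 6 and 3 members.

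**Figure D4:**
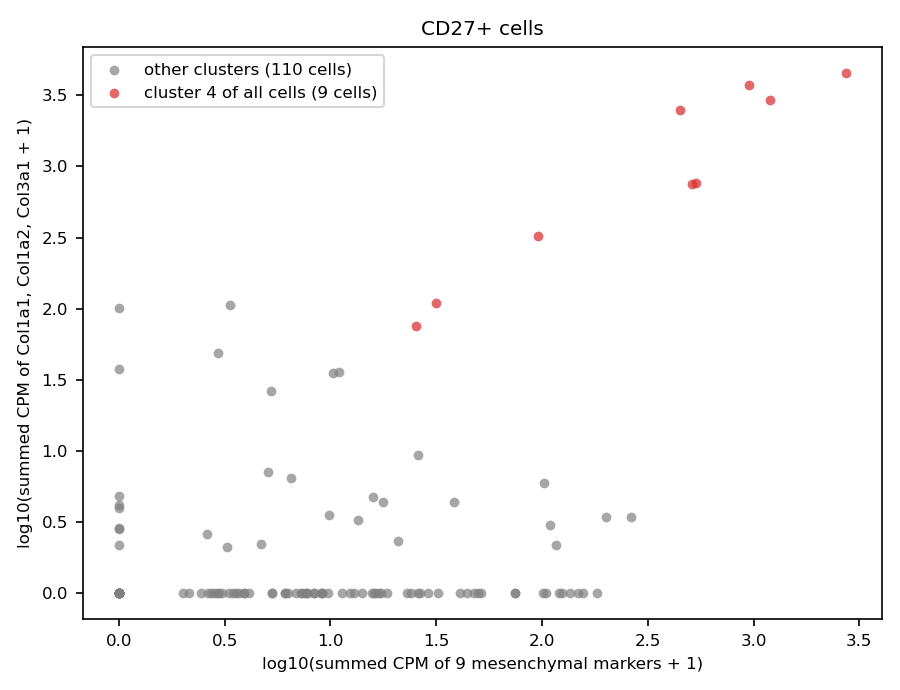
Each point is a CD27+ cell; the x axis is the summed level of 9 mesenchymal markers and the y axis that of Col1a1, Col1a2 and Col3a1, both as log10(CPM + 1). The 9 cells of cluster 4 rise along the upper right, while most of the other 110 lie at or near 0 on the y axis.

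The broad members of CD27+ cells were those of HC1 but for Lama3: Col4a1, Col4a2, Col18a1, Col5a2, Col11a2, Lama4, Lama5, Lamb1, Lamb2 and Lamc1. Their source was mixed as well. CD27+ cells of cluster 2 (9 cells), with 3417 CPM of endothelial markers and 3.61 of hematopoietic ones, had 852.4 CPM of Col4a1 and 0.784 of Lama5. Those of cluster 8 (69 cells), with 876.5 and 643.7 CPM of these markers, had 119.3 CPM of Col4a1 and 37.6 of Lama5. All CD27+ cells over all G2VLo cells at E11.5 gave 22 tested members, of which 9 were 2-fold or more higher (2.84% of all genes) and 4 lower (6.47%), with a median log2 ratio of -0.15 against 0.02 over all genes. Higher were Col1a1 (11.7-fold), Col2a1 (9.51-fold), Col1a2 (5.77-fold), Col9a1 (5.04-fold), Col3a1 (4.20-fold), Col11a1 (3.00-fold), Lama3 (2.58-fold), Col5a1 (2.22-fold) and Col11a2 (2.07-fold). Lower were Lama1 (7.83-fold), Lama4 (2.87-fold), Col15a1 (2.64-fold) and Lamb1 (2.46-fold), chains that were highest in EC cells.

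Without the cells of cluster 4 (9 CD27+ and 13 G2VLo cells), a comparison chosen after these values were seen, 2 members were higher (2.67% of all genes), Col11a2 and Lama3, and 7 lower (7.53%). Col1a1 was then 0.0714 CPM in CD27+ cells and 1.13 in G2VLo cells, Col3a1 2.00 and 11.4, and Col1a2 1.21 and 3.28, so that the direction turned. Col11a2 held at 13.1 CPM in CD27+ cells and 6.44 in G2VLo cells, and Lama3 at 8.95 and 3.29. Col11a1 fell under 2-fold, with 1.93 and 1.4 CPM. Within cluster 8 of the clustering of all cells 11 members were tested, with 0 higher (2.14% of all genes) and 1 lower (2.98%). That was Col5a2, with 2.92 CPM in 69 CD27+ cells and 9.68 in the G2VLo cells. Lama5 had 37.6 and 40.8 CPM there, Col11a2 16.9 and 19.8, Lamb1 28.6 and 32.1, and Col4a1 119.3 and 136.2, ratios whose log2 lay between -0.22 and -0.12. The composition of the 2 groups and the level within a cell type cannot be told apart in the comparison of all cells.

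At E11.5 the Venus gates were compared within a set. G2VInt over G2VLo in EC cluster 1 (68 and 60 cells) gave 19 tested members, of which 6 were 2-fold or more higher (4.56% of all genes) and 0 lower (1.45%). In EC cluster 2 there were 18, with 3 higher (2.42%) and 0 lower (0.530%), and in HC1 13, with 1 higher (3.18%) and 1 lower (1.14%). The median log2 ratios of the members were 0.62, 0.38 and 0.47, against 0.13, 0.17 and 0.14 over all genes. Lamb2 was called in all 3: 57 CPM in G2VInt and 18 in G2VLo cells of EC cluster 1, 30.8 and 13.9 in EC cluster 2, and 31.5 and 12.2 in HC1. Col13a1 had 52.8 CPM in G2VInt and 11.3 in G2VLo cells of EC cluster 1, and 9.01 and 2.71 in EC cluster 2. Col26a1 had 41.9 and 19.2 CPM in EC cluster 1, 33.2 and 9.13 in EC cluster 2, and 7.08 and 6.96 in HC1. Col23a1 (3.04-fold), Col1a2 (2.47-fold) and Col4a5 (2.06-fold) were higher in EC cluster 1 alone among the 3 sets, and whether the sets differ was not tested. Few cells held the reads of Col1a2 in EC cluster 1 and of Col13a1 in EC cluster 2. Lamb1 was close to equal, with 386.5 and 367.9 CPM in EC cluster 2 and 50.9 and 49.7 in HC1. Cells of the gates came from separate library blocks with medians of 1892779 reads in G2VInt and 539090 in G2VLo cells, so gate and block cannot be told apart.

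**Figure D5:**
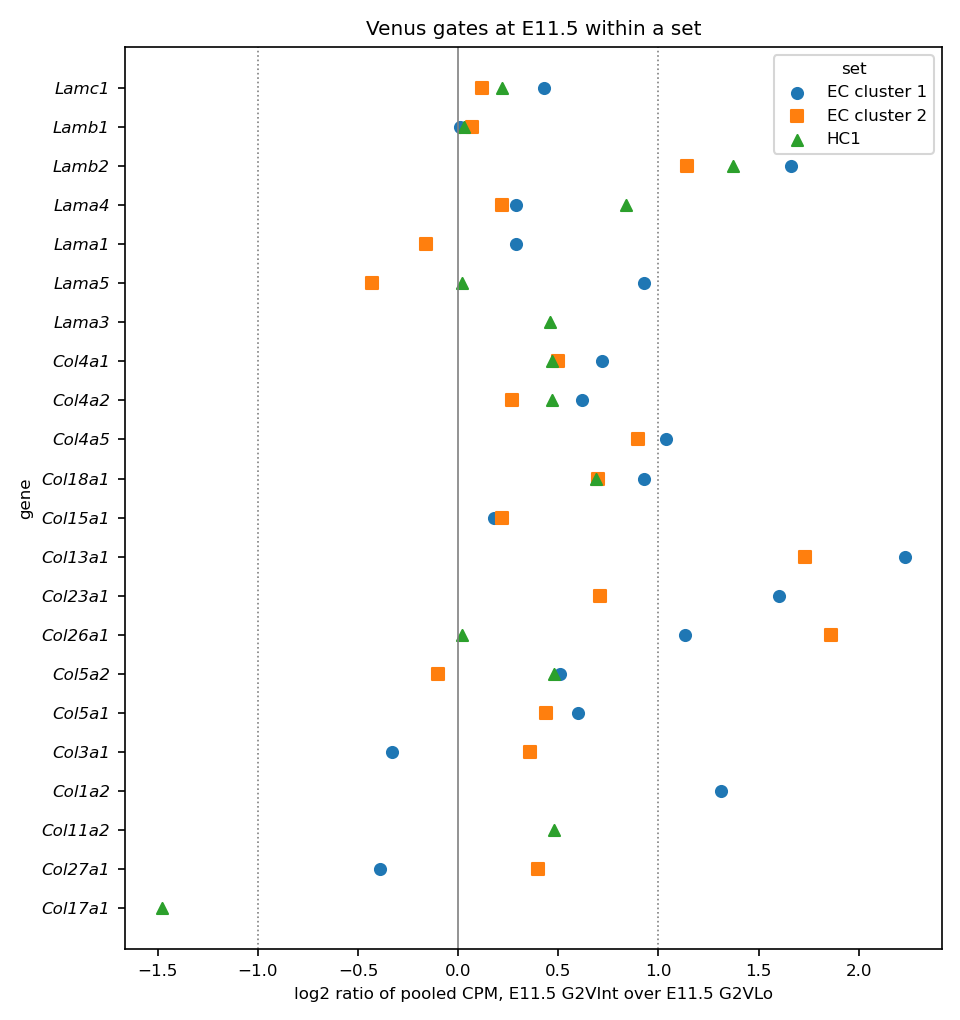
The x axis is the log2 ratio of pooled CPM in E11.5 G2VInt cells over E11.5 G2VLo cells, with a marker for each of 3 sets; rows are the tested members and dotted lines mark 2-fold. Lamb2 lies right of 2-fold in all 3 sets and Col13a1 in both EC clusters, while Lamb1 lies close to 0.

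HC1 held G2VInt cells of 3 days. Col18a1 had 784.9 CPM in E10 cells, 794.7 in E11 cells and 796.5 in E11.5 cells, and Lamc1 45.0, 40.4 and 33.8. Lama5 was lowest at E10, with 33.4 CPM, against 59 and 57.2 on the later days, and Col11a2 23.1, 28.6 and 26.8. Lama3 had 5.00 CPM on the first day, 23.9 on the next and 13.7 on the last. For E11.5 over E11, 14 members were tested, with 0 higher (1.16% of all genes) and 1 lower (2.08%). That was Col17a1, a transmembrane collagen of skin, with 2.11 CPM at E11.5 and 7.13 at E11, held by few cells of HC1. It was also 2.79-fold lower in G2VInt (2.11 CPM) than in G2VLo cells (5.88 CPM) of HC1. Each day is a separate library block, so day and block cannot be told apart.

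Genes that fold, link, bind or cut these proteins were described by a list of 74, all in the table. For EC cluster 1 over HC1, 56 were tested, with 33 higher and 4 lower (13.2% and 13.3% of all genes); for EC cluster 2 over HC1, 53, with 23 and 9 (11.3% and 15%). For HC2 over HC1, 45 were tested, with 1 higher and 32 lower (6.17% and 14.7%), and for U1 over HC1, 47, with 7 and 32 (12.3% and 35.3%). Serpinh1, the chaperone that is specific to collagen, had 547 CPM in EC cluster 1, 480.6 in EC cluster 2, 4.47 in HC2, 23 in U1 and 112.7 in HC1. P4hb, a subunit of the enzyme that hydroxylates prolines which also serves other proteins, lay between 495.8 CPM in CD27+ cells and 794.2 in EC cluster 1. Pxdn, the peroxidase that crosslinks collagen IV, had 315.4 CPM in EC cluster 1, 370.4 in EC cluster 2 and 68.7 in HC1.

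Of the partners in the sheet, Sparc, a collagen-binding protein, had 1593 CPM in EC cluster 1, 1835 in EC cluster 2, 16.6 in HC2 and 188.7 in HC1, and Egfl7, which vessels secrete into their matrix, 1499 and 1373 in the EC clusters and 655 in HC1. Fn1, fibronectin, ran the other way with 517.5 CPM in EC cluster 1, 553.5 in CD27+ cells and 981.5 in HC1. Itgb1, the common beta chain of collagen and laminin receptors, had 984.2 CPM in EC cluster 1, 657.3 in EC cluster 2, 232.1 in HC2, 360.8 in U1 and 465.5 in HC1. Of the 16 receptor genes of the list, 3 were broad in HC2 and 4 in U1, and Itga1, Itga2 and Itga3, alpha chains of such receptors, had 0.563, 1.62 and 0.386 CPM in HC2 and 0.0516, 0.155 and 0.12 in U1. Itga6, a laminin receptor chain, had 218.6 CPM in EC cluster 1, 229.8 in EC cluster 2, 40.8 in HC2, 276.9 in U1 and 78.2 in HC1, and Lair1, a collagen receptor of leukocytes, was high in U1 alone with 125.5 CPM and at most 5.45 elsewhere. Mmp2 and Mmp14, which cut collagen, had 666 and 258.8 CPM in EC cluster 1, against 150.8 and 49.1 in HC1, and Timp3, their inhibitor in the matrix, 188.8 against 77.4.

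The 21 members not named by the rule had at most 7.55 CPM in any set and were read in at most 15.8% of its thinned cells. They include chains of collagens VI, IX and XII. Messenger RNA was measured, and the proteins were not.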

How the data were processed

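The deposited table holds read counts per gene and cell. HTSeq 0.6.0 and build GRCm38 are named in the submitters' processing notes, and Nextera XT libraries in the labels. The aligner, annotation release, strand setting and cell filters are not given in the sources used here. PCR copies were not collapsed as far as the labels say, so intervals cover counting error only. Symbols came from GENCODE M21, which held 45143 of the 46078 genes; the other 935 took 0.096% of counts. Cell classes are the submitters' labels; there were 145 cells in EC cluster 1, 190 in EC cluster 2, 124 in HC2, 85 in U1, 19 in U2, 119 CD27+ and 405 in HC1, with 279 G2VInt and 472 G2VLo cells at E11.5.

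Counts were summed per set, scaled to CPM with exact Poisson 95% intervals, and shares taken after thinning to 100000 reads, with exact Clopper-Pearson 95% intervals (Python 3.11.15, numpy 2.4.6, scipy 1.17.1). A count of 0 allows up to 3 counts. Each group is 1 sample, so ratios were described and no p-value was computed. The procedure was tested on simulated cells with known ratios and counting error only. That test cannot speak to spread between cells or to PCR copies, which were not simulated. Named members were broad in a set, held by few cells at 5 CPM or more, or called in a comparison (34 of 55). Doublets were not called. Alternatives were other thinning, limits and filters, mean CPM per cell, single gates, and each gene without its own top cell in each set. TMM (edgeR 4.0.16) or DESeq2 1.42.0 size factors in R 4.3.3 were used as well. Members and lists were chosen with earlier results of these data known.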

Additional observations from a re-analysis of the deposited data

How the results depend on the processing

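Of 90 called member ratios under 757 alternatives, 737 kept a 2-fold difference in the same direction, 13 fell under 2-fold and 7 turned. The 7 were Lama4 in HC2 over HC1 among G2VLo cells alone (log2 0.86) and, for CD27+ over G2VLo without cluster 4 of all cells, log2 ratios of -4.05 for Col9a1, -3.98 for Col1a1, -3.79 for Col2a1, -2.51 for Col3a1, -1.76 for Col5a1 and -1.44 for Col1a2. That alternative was chosen after seeing the data; it left 2 members higher and 7 lower, 18 broad and 15 few-cell members in U2, and 13 few-cell members in CD27+ cells. With a minimum of 5 CPM, few-cell members numbered 1 in EC cluster 1, 1 in EC cluster 2, 1 in HC2, 2 in U1, 4 in U2, 10 in CD27+ cells and 1 in HC1. Broad members numbered 12 in HC2 and 8 in U1 with all reads, 8 in HC2, 5 in U1 and 18 in CD27+ cells at a share of 10%, and 1 in U1 at 50000 reads. With a filter of 1 CPM, 2 members were higher in U1 over HC1 (12.7% of all genes tested so), 10 in EC cluster 1 over EC cluster 2 (7.23%), and 12 higher (7.90%) and 2 lower (3.72%) for G2VInt over G2VLo in EC cluster 1. The same filter gave 2 higher for G2VInt over G2VLo in HC1 (5.48%), 2 lower for E11.5 over E11 in HC1 (4.73%) and 2 lower for CD27+ over G2VLo in cluster 8 (4.94%). Mean CPM per cell also gave 2 lower for E11.5 over E11. Under TMM, DESeq2 factors, mean CPM per cell, the 1 CPM filter, without top cells, in either gate alone and without cluster 4, 2 members in place of 1 were lower in EC cluster 1 than in EC cluster 2. HC2 over HC1 had 0 higher among G2VLo cells alone, where Col5a1 was too low to be tested. Another scaling moved all log2 ratios most for U1 over HC1, by 0.47 (TMM) and 0.51 (DESeq2). Beyond what each construction fixes, the cause was not tested. No paired analysis was possible because each group is 1 sample and cell numbers pair nothing. Depth limits the shares: a member read in no U2 cell may be in up to 15.8% of them.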
